A study of Mus musculus with 8 samples.

Results

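Integrins are the adhesion receptors with which T cells hold on to vessel walls, epithelium and matrix, and 10 of their chains were followed here in CD4+ T cells that had expanded in mice with T cell transfer colitis. The genes are Itga4, Itgb7, Itgae, Itgb1, Itgal, Itgb2, Itga1, Itga2, Itga6 and Itgav, named by a list and found on the array by probe sets annotated with that symbol alone. Where a gene had several such probe sets, the one with the highest mean over all 8 arrays was kept. All 10 were measured, out of 22180 genes on named probe sets, and all 10 were among the 13308 genes whose mean level was high enough for testing.

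An integrin works as a pair of an alpha and a beta chain, and the pair decides what is bound. The alpha4beta7 pair binds MAdCAM-1 on the vessels of the gut and its lymph nodes, and alpha4beta1 binds VCAM-1 on inflamed vessels. The alphaEbeta7 pair, CD103, binds E-cadherin and holds T cells in the epithelium, while alphaLbeta2, LFA-1, binds ICAM-1 on endothelium and on antigen-presenting cells. The collagen receptors alpha1beta1 and alpha2beta1, the laminin receptor alpha6beta1 and the alphaV integrins, which also release active TGF-beta, serve adhesion inside tissue.

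The arrays compare T cells with and without Irak1, the gene of a kinase downstream of IL-1 family and Toll-like receptors, in a series whose title speaks of gut homing. Naive-type CD4+CD62L+ cells of both genotypes, wt cells carrying CD45.1 and Irak1-/- cells carrying CD45.2, were given in equal numbers into the peritoneum of Rag1-/- hosts, which lack T and B cells of their own. On day 14 the CD3+CD4+ cells of each genotype were separated by their CD45 form from the mesenteric lymph nodes of 2 pooled hosts, and this was done in 4 batches, giving 4 wt and 4 Irak1-/- arrays. The strain is C57BL/6 for all arrays, with the animals' age and sex and the Irak1 allele's design not given in the sources used here. Both genotypes had passed through the same hosts without T and B cells of their own. In this design genotype and CD45 form cannot be told apart.

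The values are log2 levels, and the medians of the arrays lay between 4.25 and 4.31. T cell markers were high on all 8 arrays, with a mean over 11 genes between 9.84 and 10.11. The Irak1-/- array of batch 3 correlated with the others at 0.957 to 0.970 over the tested genes, against 0.976 to 0.986 among the other 7. With 4 arrays in each group precision was limited, and the median standard error (SE) of a difference over all tested genes was 0.124. In sorted populations, a lower level can come from fewer expressing cells or from less RNA per cell, and arrays do not separate these.

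Of the 10 chains, Itga1 read lower and Itgae higher on the Irak1-/- arrays of all 4 batches, by 1.61-fold and 1.52-fold, and neither passed the test over all genes. Itgal was also lower in all 4. Of all tested genes, 14.2% had the same direction in 4 of 4 pairs (5.26% higher, 8.91% lower). The 8 chains other than Itga1 and Itgae, among them both chains of the gut homing receptor alpha4beta7 and both chains of LFA-1, had differences between -0.16 and 0.09 on the log2 scale. No chain passed at an adjusted p under 0.05 in limma's moderated test with batch as a block (adjusted p from 0.285 to 0.977), where 0.0751% of all 13308 genes did (0.0676% higher, 0.00751% lower). At an unadjusted p under 0.05 there were 2 chains, Itgae higher and Itga1 lower, against 6.70% of all genes (2.88% higher, 3.82% lower). The median difference of the 10 chains was -0.06, beside -0.03 over all tested genes, and 7 of the 10 were negative, beside 58.1% of all genes. All differences are Irak1-/- minus wt.

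**Figure D1:**
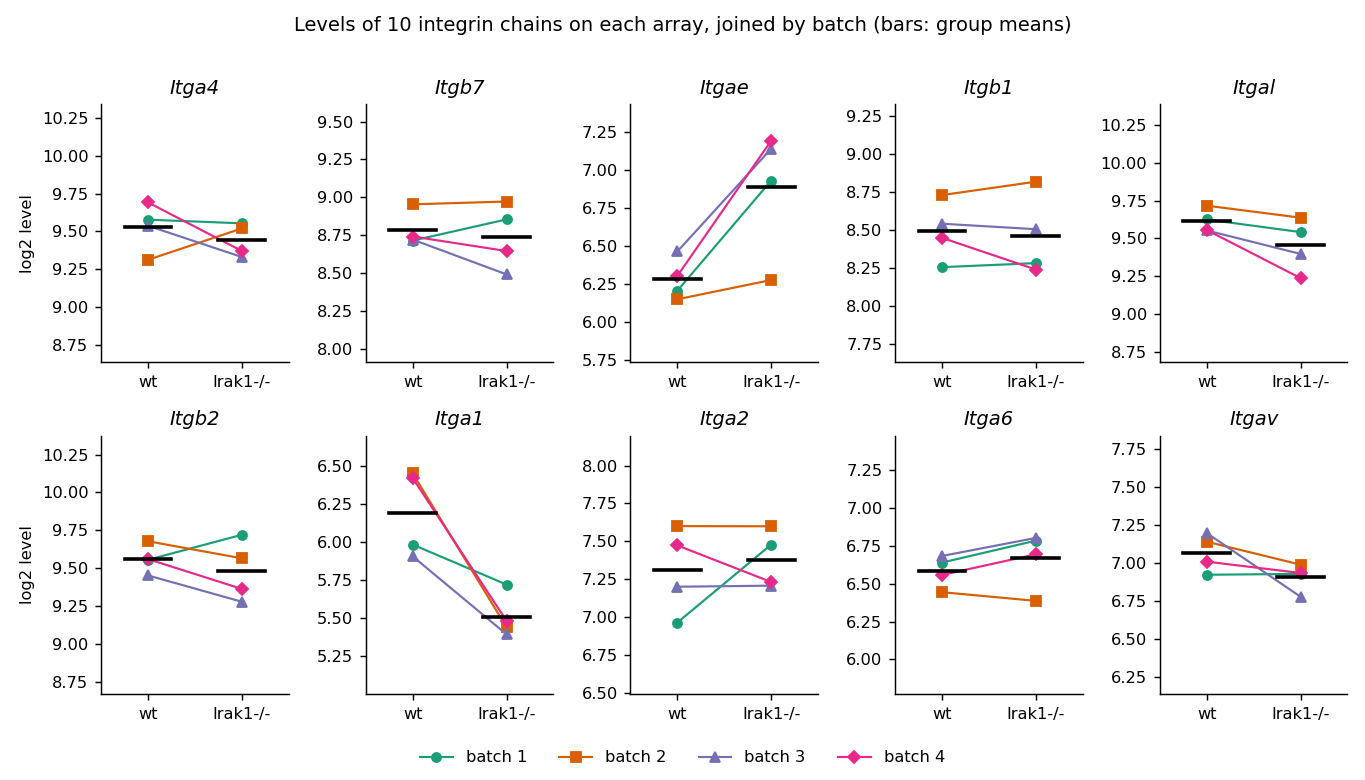
Log2 level of each of the 10 integrin chains (vertical axis, spanning 1.7 units in every panel) on the 4 wt and 4 Irak1-/- arrays, joined by batch, with black bars at the group means. The Itga1 groups lie apart, with the lowest wt array at 5.91 and the highest Irak1-/- array at 5.72, and the groups of the other chains overlap.

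The DNA just before the start of 4 of these genes is shown, because they form the pairs alpha1beta1, with the chain of smallest p in these data, and alpha4beta7, the receptor for gut vessels. RefSeq promoter windows on GRCm38.p6 were at hand for 6 of the 10 chains (Itga1, Itga2, Itga4, Itgav, Itgb1 and Itgb7). Each sequence holds the 250 bases before the annotated start, read on the gene's own strand, from chr13:115101965-115102214 (minus strand) for Itga1, chr8:128685404-128685653 (plus) for Itgb1, chr2:79255176-79255425 (plus) for Itga4 and chr15:102231936-102232185 (minus) for Itgb7. Capitals mark matches to 6 motifs, searched on both strands: the GC box GGGCGG, the RUNX motif TGTGGT, the AP-1 motif TGACTCA, the ETS motif CCGGAAG, the NF-kappaB motif GGGNNTTCC and the TATA box TATAAA.
Itga1: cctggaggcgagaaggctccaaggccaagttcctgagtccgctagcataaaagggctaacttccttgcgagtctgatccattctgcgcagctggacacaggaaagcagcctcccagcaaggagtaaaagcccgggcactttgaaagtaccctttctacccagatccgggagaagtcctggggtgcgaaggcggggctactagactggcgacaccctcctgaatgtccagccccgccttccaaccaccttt
Itgb1: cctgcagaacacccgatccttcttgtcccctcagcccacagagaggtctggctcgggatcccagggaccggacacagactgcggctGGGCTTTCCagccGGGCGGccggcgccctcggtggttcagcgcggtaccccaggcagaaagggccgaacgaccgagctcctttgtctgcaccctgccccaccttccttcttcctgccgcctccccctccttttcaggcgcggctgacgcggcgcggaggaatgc
Itga4: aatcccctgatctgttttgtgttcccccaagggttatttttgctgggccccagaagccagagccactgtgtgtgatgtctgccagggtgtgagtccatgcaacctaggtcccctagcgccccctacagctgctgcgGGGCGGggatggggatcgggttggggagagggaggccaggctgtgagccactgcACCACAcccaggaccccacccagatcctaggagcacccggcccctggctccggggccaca
Itgb7: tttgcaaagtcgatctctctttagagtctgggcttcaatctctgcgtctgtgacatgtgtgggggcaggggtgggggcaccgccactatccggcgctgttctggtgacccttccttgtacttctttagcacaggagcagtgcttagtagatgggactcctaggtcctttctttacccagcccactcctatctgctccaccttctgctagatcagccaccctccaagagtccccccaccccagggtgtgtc

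Matches were few. The Itga4 window held 1 GC box, 114 bases before the start, and 1 RUNX match, 60 bases before it, while 32.7% and 14.0% of all 32851 RefSeq windows of that length held these motifs. The Itgb1 window held 1 GC box at 151 bases and 1 NF-kappaB match at 164 bases, motifs found in 32.7% and 4.98% of windows. No match to the AP-1, ETS or TATA letters, found in 4.46%, 6.91% and 12.4% of windows, lay in the 6 windows, and those of Itga1, Itga2, Itgav and Itgb7 held no match to any of the 6 motifs. A match is a run of letters and not a measured binding site, and its lack says nothing about the factor.

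Itga4, the alpha chain shared by the gut receptor alpha4beta7 and by alpha4beta1, was well above the array medians in both genotypes. Its probe set 17372307, on chromosome 2, read 9.58, 9.31, 9.54 and 9.69 on the wt arrays of batches 1 to 4 and 9.55, 9.52, 9.33 and 9.37 on the Irak1-/- arrays. The groups overlap, and the wt arrays of batches 4 and 2 hold both the highest and the lowest of the 8 values. Group means were 9.53 ± 0.158 (SD, n = 4) and 9.44 ± 0.109, a log2 difference of -0.09 with a 95% confidence interval from -0.36 to 0.19 (limma adjusted p = 0.948, lower in 3 of 4 pairs). In folds, the interval runs from 1.29-fold lower to 1.14-fold higher in Irak1-/- cells. A further probe set, 17387246, is annotated to Cerkl and Itga4 together and was not used.

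Itgb7, the beta chain that Itga4 and Itgae share in their gut and epithelial receptors, likewise had overlapping groups. Probe set 17322163, on chromosome 15, read 8.72, 8.95, 8.72 and 8.74 in wt and 8.85, 8.97, 8.49 and 8.65 in Irak1-/- cells. Both arrays of batch 2 were the highest of their group. The difference was -0.04 (95% confidence interval -0.30 to 0.21, adjusted p = 0.967), higher in 2 pairs and lower in 2, and it turned to 0.02 without batch 3.

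Itgb1, the common beta chain of the collagen, laminin, fibronectin and VCAM-1 receptors, varied more between batches than within them. Probe set 17507014, on chromosome 8, read 8.25, 8.73, 8.54 and 8.45 in wt and 8.28, 8.82, 8.50 and 8.24 in Irak1-/- cells. The SD of the 4 batch means was 0.225, while the SD of the 4 differences was 0.128. Batch 2 gave the highest level in both genotypes. The difference was -0.03 (95% confidence interval -0.28 to 0.21, adjusted p = 0.977), with a sign that turned under quantile normalization (0.00044) and without batch 4 (0.03).

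Itgae, the alpha chain of CD103 that pairs with Itgb7 alone, read higher in all 4 batches, as did 5.26% of all tested genes. Probe set 17252574, on chromosome 11, read 6.21, 6.15, 6.46 and 6.30 in wt and 6.93, 6.28, 7.14 and 7.19 in Irak1-/- cells. The Irak1-/- arrays of batches 1, 3 and 4 lie above every wt array, and that of batch 2 lies among them, so the groups overlap. The pair differences were 0.73, 0.13, 0.68 and 0.89. Group means were 6.28 ± 0.138 (SD, n = 4) and 6.89 ± 0.422, a fitted difference of 0.61 (SE 0.141, unadjusted p = 0.00217), or 1.52-fold with a 95% confidence interval of 1.22 to 1.90. It ranked number 82 of 13308 genes by p and did not pass over all genes (limma adjusted p = 0.352), and without batch 2 the difference was 0.76 (adjusted p = 0.377). Without batch 3, which holds the Irak1-/- array that stands apart, it was 0.58 (adjusted p = 0.595). In a fit without the batch block, the difference was the same 0.61 and the adjusted p was 0.782.

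**Figure D2:**
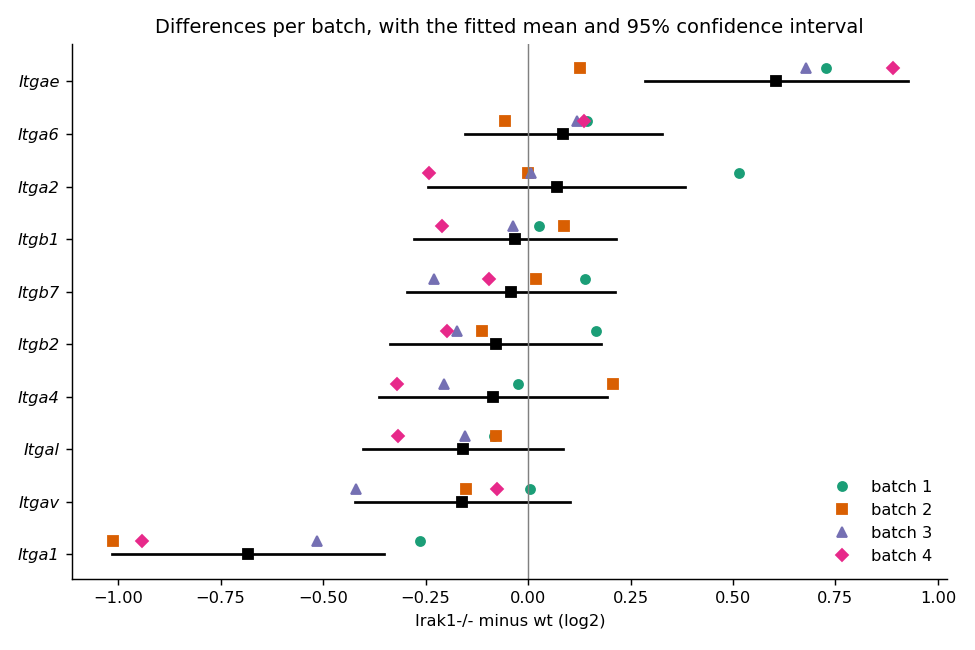
Irak1-/- minus wt difference of each chain (horizontal axis, log2), with coloured points for the 4 batches and black squares and lines for the fitted mean and its 95% confidence interval, ordered by size. The intervals of Itgae (0.28 to 0.93) and Itga1 (-1.01 to -0.35) lie to either side of 0, and those of the other 8 chains span it.

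Both LFA-1 chains had overlapping groups. Itgal, the alpha chain, on chromosome 7 (probe set 17483264), read 9.63, 9.72, 9.55 and 9.56 in wt and 9.54, 9.64, 9.40 and 9.24 in Irak1-/- cells. It was lower in each of the 4 batches, yet by little, with a difference of -0.16 (95% confidence interval -0.40 to 0.08, adjusted p = 0.869). Of all tested genes, 8.91% were lower in 4 of 4 pairs. Itgb2, the beta chain of LFA-1 and of the CD11b and CD11c integrins, on chromosome 10 (probe set 17234647), read 9.56, 9.68, 9.45 and 9.56 in wt and 9.72, 9.57, 9.28 and 9.36 in Irak1-/- cells. Its difference was -0.08 (95% confidence interval -0.34 to 0.18, adjusted p = 0.948), higher in batch 1 and lower in batches 2 to 4.

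Itga1, the alpha chain of the collagen IV receptor CD49a, a mark of T cells and innate lymphocytes that settle in tissue, gave the smallest p of the 10 chains. Probe set 17296388, on chromosome 13, read 5.98, 6.45, 5.91 and 6.42 in wt and 5.72, 5.44, 5.39 and 5.48 in Irak1-/- cells. Every Irak1-/- array lies under every wt array, which held for 1 of the 10 chains, beside 3.04% of all tested genes in either direction and 1.86% in this one. The pair differences were -0.26, -1.01, -0.51 and -0.94, the largest in batches 2 and 4, whose wt arrays were the highest. Means were 6.19 ± 0.286 (SD, n = 4) and 5.51 ± 0.146, a fitted difference of -0.68 (SE 0.146, unadjusted p = 0.00126), which is 1.61-fold lower with a 95% confidence interval of 1.28 to 2.02. Itga1 ranked number 59 by p and did not pass over all genes (limma adjusted p = 0.285), and without batch 3 the difference was -0.74 (adjusted p = 0.433). Over the 14 alternative settings the adjusted p of Itga1 ran from 0.187 to 0.715 and that of Itgae from 0.200 to 0.879. An unadjusted p under 0.05 was reached by both genes, and by no other chain, in all 15 settings.

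Itga2, the alpha chain of the other collagen receptor, CD49b, is the neighbour of Itga1 on chromosome 13 and had no common direction over the batches. Probe set 17296355 read 6.97, 7.60, 7.20 and 7.47 in wt and 7.48, 7.60, 7.21 and 7.23 in Irak1-/- cells. In batches 2 and 3 the genotypes differed by -0.0011 and 0.0070, while batch 1 gave 0.51 and batch 4 -0.24. The mean difference was 0.07 (95% confidence interval -0.24 to 0.38, adjusted p = 0.957), and it turned to -0.08 without batch 1.

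Itga6, the alpha chain of laminin receptors, on chromosome 2 (probe set 17371800), read 6.64, 6.44, 6.68 and 6.56 in wt and 6.78, 6.39, 6.80 and 6.69 in Irak1-/- cells. The levels followed the batch, lowest in batch 2 for both genotypes, and the difference was 0.09 (95% confidence interval -0.15 to 0.33, adjusted p = 0.942). Itgav, the alphaV chain, also on chromosome 2 (probe set 17372515), read 6.92, 7.14, 7.20 and 7.01 in wt and 6.93, 6.99, 6.78 and 6.93 in Irak1-/- cells. Its difference of -0.16 (95% confidence interval -0.42 to 0.10, adjusted p = 0.888) leaned on batch 3, where it was -0.42, and was -0.07 without that batch. The second Itgav probe set, 17387368, read 5.14, 5.49, 5.46 and 5.37 in wt and 5.23, 5.11, 5.35 and 5.26 in Irak1-/- cells, lower in batches 2 to 4 and higher in batch 1, as for the first probe set.

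Partner chains were compared by their changes, since levels of different probe sets cannot be set against each other. For each batch the Irak1-/- minus wt difference of the beta chain was taken from that of the alpha chain, for 8 receptor pairs, and the 4 values were tested with an exact two-sided sign-flip permutation test. With 4 pairs, the smallest p such a test can give is 0.125. The contrasts with the same sign in all 4 batches were those of Itgae and Itga1. The Itgae difference minus that of Itgb7 was 0.59, 0.11, 0.91 and 0.99, a mean of 0.65 ± 0.399 (SD, n = 4) with a 95% confidence interval from 0.01 to 1.28 (exact p = 0.125, adjusted over the 8 contrasts 0.500). The Itga1 difference minus that of Itgb1 was -0.29, -1.10, -0.48 and -0.73, a mean of -0.65 ± 0.351 with an interval from -1.21 to -0.09 (exact p = 0.125, adjusted 0.500). In both, the beta chain differed by -0.04 or -0.03, so the contrast is nearly the whole difference of the alpha chain.

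In the other 6 receptor pairs the contrast lay within the spread between batches. For alpha4beta7 the contrast was -0.04 (95% confidence interval -0.34 to 0.25, exact p = 0.750), positive in 2 batches and negative in 2. For alpha4beta1 it was -0.05 (-0.25 to 0.14, exact p = 0.500), and for the LFA-1 chains -0.08 (-0.29 to 0.13, exact p = 0.500). The chains of alpha2beta1, alpha6beta1 and alphaVbeta1 gave 0.10, 0.12 and -0.13, each with an interval that spans 0 and exact p of 0.750, 0.375 and 0.375. Adjusted over the 8 contrasts, these 6 had p from 0.667 to 0.750. A p that misses the threshold does not show that the chains changed alike.

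**Figure D3:**
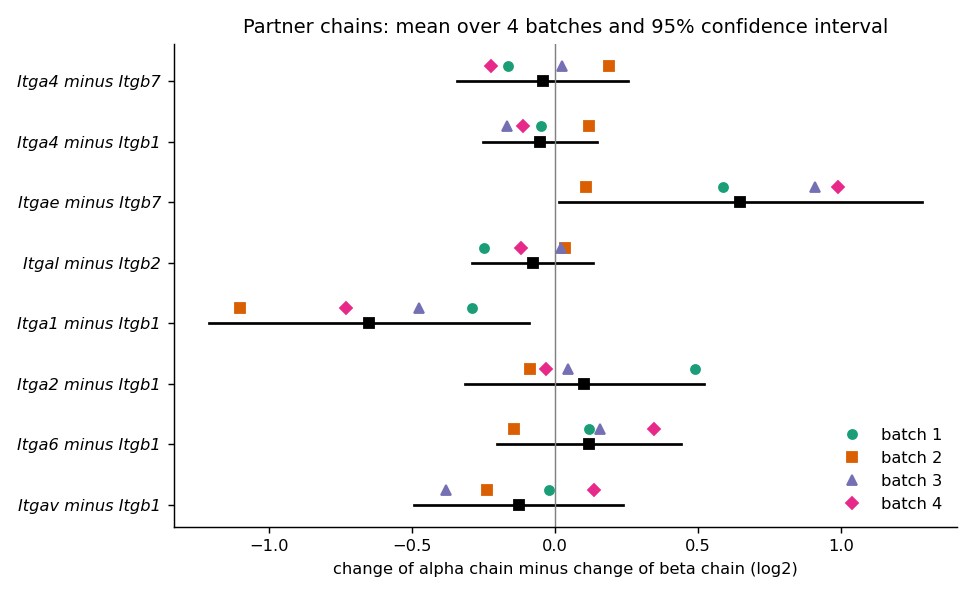
Change of the alpha chain minus change of the beta chain for 8 integrin pairs (horizontal axis, log2), with points for the 4 batches and black squares and lines for the mean and its 95% confidence interval. All 4 points lie above 0 for Itgae minus Itgb7 and below 0 for Itga1 minus Itgb1, and the other 6 pairs have points on both sides.

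Outside the 10 chains, 16 of 17 further integrin genes were found on the array and 12 passed the level filter. None passed over all genes in limma's test, the median difference was -0.10 and 8 of the 12 were negative. At an unadjusted p under 0.05, 1 was higher and 1 lower, beside 2.88% and 3.82% of all tested genes. Itgax, the alphaX chain CD11c of dendritic cells and some activated T cells, had wt and Irak1-/- means of 5.87 ± 0.147 and 5.28 ± 0.477 (SD, n = 4 each), a difference of -0.59 (SE 0.173, adjusted p = 0.501), lower in 4 of 4 pairs. Its pair differences were -0.11, -0.25, -1.07 and -0.92. Itgam, the alphaM chain CD11b of myeloid cells, had 0.05 (adjusted p = 0.969). Itga5, a fibronectin receptor chain, had 0.39 (adjusted p = 0.603) from a wt mean of 3.78, under every array median, so its size is uncertain.

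Genes of integrin activation and adaptors, not all of which switch integrins on, had differences of both signs. Of 29 tested genes for activation and adaptors, none reached even an unadjusted p under 0.05, 19 were negative and the median was -0.03, the same as over all genes. Tln1, talin, which opens integrins by binding beta chain tails, had a difference of -0.03 and was named after its value was seen. Fermt3, kindlin-3, its partner in this step, had -0.19, Rasgrp2, an exchange factor for the switch Rap1, -0.19, Actn4, an actin cross-linker, -0.20 and Itgb1bp1, a protein that binds the Itgb1 tail, -0.31, with adjusted p from 0.792 to 0.861, each lower in 3 or 4 of the 4 pairs. Among 12 tested genes of integrin ligands none passed, and Icam1, the LFA-1 ligand, which T cells themselves carry, had the smallest p (-0.44, adjusted p = 0.493, lower in 4 of 4 pairs). Madcam1, at 4.48 in wt and 4.24 in Irak1-/- cells, had -0.25 (adjusted p = 0.803).

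Genes that act with CD103 and CD49a in tissue-resident T cells had differences of both signs. Of 14 tested, none passed over all genes, and the median was -0.15, with 10 of 14 negative. At an unadjusted p under 0.05, 1 was higher and 3 were lower, beside 2.88% and 3.82% of all tested genes. Nr4a1, a nuclear receptor induced by antigen signals, had -0.76, Cd69, which keeps cells from leaving tissue, -0.51, and Bhlhe40, a transcription factor of resident cells, -0.35, while Ccr7, the receptor for entry into lymph nodes, had 0.43, with adjusted p from 0.162 to 0.655. Nr4a1, Cd69 and Bhlhe40 were each lower in 4 of 4 pairs, as were 8.91% of all tested genes. Their groups did not overlap, as for 1.86% of all tested genes in this direction. Ccr7 was higher in 4 of 4 pairs, with groups that overlap. In batch 3 the mean of the list was -0.41, beside -0.14 to 0.00 in the others.

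Markers of other cells differed between the genotypes and stand beside Itgae and Itga1. Of 19 tested myeloid markers, 3 rose past the threshold of adjusted p under 0.05 in limma's test, beside 0.0676% of all genes. These were Lyz2 (4.16), Tyrobp (2.47) and Fcer1g (1.89), each higher in 4 of 4 pairs. At an unadjusted p under 0.05, 13 were higher and 0 lower, beside 2.88% and 3.82% of all tested genes. Of the 19, 18 were positive, among them Cebpa (0.08), C1qa (0.14), Fcgr3 (0.16) and Cd68 (0.16), and Ly6c2 had -0.13. The mean differences per batch were 0.58, 0.97, 1.09 and 1.17, beside 0.73, 0.13, 0.68 and 0.89 for Itgae. The medians of the list per batch were 0.34, 0.35, 0.71 and 0.72. Summed over all 22 myeloid markers on the array, the log2 level ran from 10.46 to 10.72 in wt and from 11.04 to 11.48 in Irak1-/- arrays. Most of the wt sum was Ly6c2 and Ctss, with means of 9.31 and 8.57 in wt and 9.19 and 8.99 in Irak1-/- cells. Ly6c2, Ctss, Cebpa, C1qa, Fcgr3 and Cd68 were named after their values were seen. The part of these cells in the Itgae difference was not tested.

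CD103 also marks a class of dendritic cells, and the markers of dendritic cells had differences of both signs. Of 10 tested, 7 were positive and 3 negative. At an unadjusted p under 0.05, 3 were higher and 0 lower, beside 2.88% and 3.82% of all tested genes. The MHC class II chain H2-Aa (1.74) rose past the threshold in limma's test, as did 0.0676% of all genes. The chains H2-Ab1 and H2-Eb1 had 1.77 and 0.82 (adjusted p = 0.0798 and 0.163). Itgax, outside this list, had -0.59. Xcr1, a receptor of the CD103+ class, read 4.02 in wt and 4.13 in Irak1-/- cells, under every array median in both group means. Its difference was 0.11, higher in 4 of 4 pairs, as were 5.26% of all tested genes. Zbtb46, a factor of conventional dendritic cells, had 0.01. Batf3, needed by the CD103+ class and also made by T cells, had -0.27. Xcr1 and Zbtb46 were named after their values were seen. Summed over 12 genes on the array, the log2 level ran from 8.73 to 8.88 in wt and from 9.19 to 9.78 in Irak1-/- arrays. Most of this rise was in H2-Ab1 and H2-Aa, with means of 6.11 and 4.48 in wt and 7.88 and 6.22 in Irak1-/- cells. The part of dendritic cells in the Itgae difference was not tested.

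Regulatory T cells often carry CD103, and their markers had no common direction. Of 10 tested none passed, 5 were positive and 5 negative, and the median was -0.03. At an unadjusted p under 0.05, 0 were higher and 1 was lower, beside 2.88% and 3.82% of all tested genes. The lower one was Klrg1, a receptor of effector-type regulatory and other effector cells, at -0.50 (adjusted p = 0.628, lower in 3 of 4 pairs), and Il2ra, the IL-2 receptor alpha chain, had -0.25 (adjusted p = 0.856). Foxp3, their defining factor, named after its value was seen, had wt and Irak1-/- means of 6.67 ± 0.295 and 6.61 ± 0.527 (SD, n = 4 each), a difference of -0.06 (adjusted p = 0.960). Summed over 11 genes, the log2 level ran from 10.74 to 10.94 in wt and from 10.71 to 11.08 in Irak1-/- arrays.

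CD49a and CD49b are also carried by NK cells and innate lymphocytes. Of the tested markers of NK, ILC and CD8 T cells, 7 were negative, as was Itga1, and 3 were positive. Of 10 tested none passed over all genes, 6 were lower at an unadjusted p under 0.05 against 3.82% of all genes, and the median was -0.50. The means per batch were -0.21, -0.46, -0.26 and -0.31, beside -0.26, -1.01, -0.51 and -0.94 for Itga1. Gzmk and Gzma, granule proteases, had -0.67 and -0.49, and Klrd1 and Klrk1, NK receptors also found on effector T cells, -0.55 and -0.51. Ncr1, the receptor that defines NK cells, lay at 3.91 in wt and 3.96 in Irak1-/- cells, under every array median. Klre1 and Cd8a, also among the 6, had -0.66 and -0.55, each lower in 3 of 4 pairs. The positive ones were Ncr1 (0.05), Klrb1c (0.04) and Cd8b1 (0.31), and Eomes had -0.05. All of these were named after their values were seen. Summed over 10 genes, the log2 level ran from 11.61 to 12.13 in wt and from 11.06 to 11.71 in Irak1-/- arrays. Most of this sum was Gzma, Gzmk and Klrd1, with wt means of 10.43, 10.19 and 9.90. The part of NK, ILC or CD8 T cells in the Itga1 difference was not tested.

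Platelets and stroma carry Itga2, Itga6 and Itgb1, and many of their markers were low on these arrays. Of 8 platelet genes on the array, 6 lay under the median on every array, and of 14 stromal, endothelial and epithelial genes 6 did. Their tested members (3 and 10) had medians of 0.02 and -0.05, and the 5 tested B cell markers -0.01, with none past the threshold and none at an unadjusted p under 0.05.

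**Figure D4:**
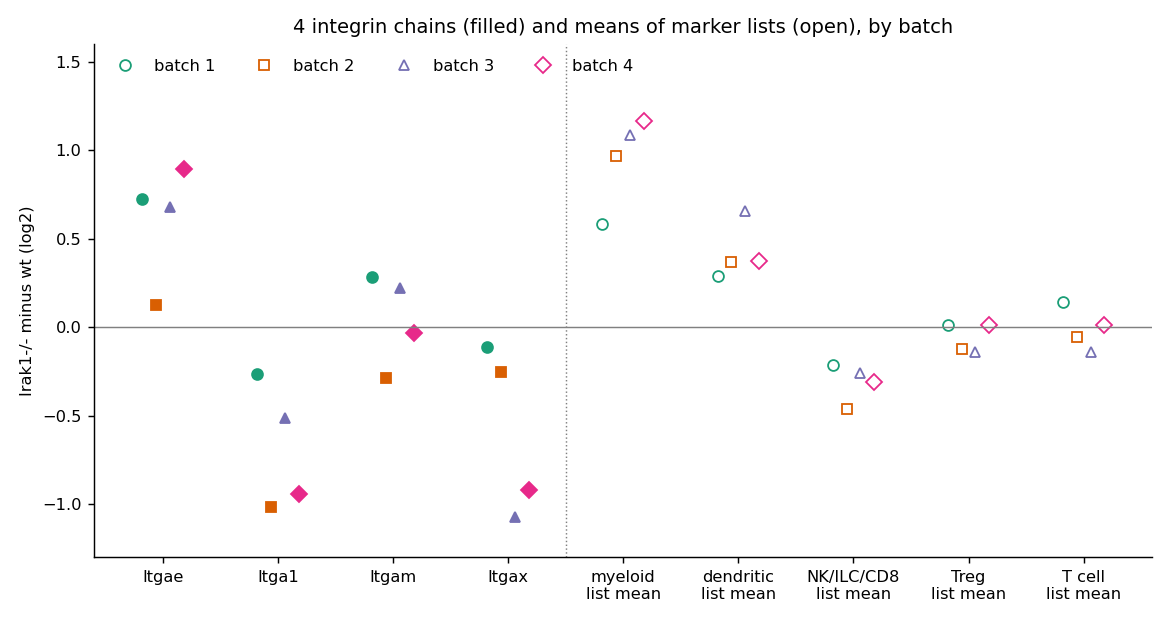
Irak1-/- minus wt differences per batch (vertical axis, log2) of Itgae, Itga1, Itgam and Itgax (filled points) and the mean differences of 5 marker lists (open points). Myeloid list means lie between 0.58 and 1.17 in all 4 batches, Itgae lies between 0.13 and 0.89, Itga1 between -1.01 and -0.26, and the regulatory T cell and T cell lists lie around 0.

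The chains differed in how much they varied over the 8 arrays. The SD over all arrays was 0.435 for Itgae, 0.421 for Itga1, 0.227 for Itga2 and 0.217 for Itgb1, above the median of 0.195 over all tested genes, and between 0.132 and 0.160 for the other 6. For these 4 the most similar genes were sought, by the root mean square distance between levels centred on each gene's mean over the 8 arrays. Itgae lay nearest to Ly86 (0.118), whose product MD-1 is a partner of the RP105 receptor on B cells and myeloid cells, then to Gm3696 (0.157) and to Ccl2 (0.159), a chemokine that attracts monocytes. Ly86 and Ccl2 differed by 0.76 and 0.74 between the genotypes.

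Itga1 lay nearest to Zfp764 (0.170), a zinc finger gene, to Ptprv (0.176), annotated as a phosphatase pseudogene, and to Ssh3 (0.189), a cofilin phosphatase, with genotype differences of -0.55, -0.85 and -0.46. Itga2 lay nearest to Srsf1 (0.0597), a splicing factor, Rbpj (0.0668), the DNA-binding partner of Notch, and Mark2 (0.0842), a polarity kinase. Itgb1 lay nearest to Snx29 (0.0914), a sorting nexin, Mgll (0.0926), a lipase, and Crebl2 (0.0988). The distances of Itgae and Itga1 include the genotype difference that was itself under study.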

How the data were processed

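The members and gene lists were chosen with earlier results of these data known. For each of the 8 arrays the authors deposited 41345 probe set values, on a log2 scale as read from their range. Their background correction and normalization are steps not given in the sources used here. Per the labels' protocols, cells were sorted to a purity above 99.5% and RNA was isolated with TRIzol.

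Probe sets with 1 symbol (23521) were kept, those with several (1814) or none in the annotation used (16010) were left out, and symbols were updated through GRCm38.p6 gene identifiers. Per gene the probe set with the highest mean was used. Genes with a mean under the 40th percentile were left out, which kept those at 3.90 or above. limma 3.58.1 in R 4.3.3 was fitted with lmFit and eBayes to all 13308 genes with batch as a block, two-sided, with Benjamini-Hochberg adjustment. The fit was tested on simulated data.

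The labels give each batch 1 array of each genotype, from the same hosts. Deviations from the group means correlated within batches at 0.185, 0.143, 0.200 and 0.0799. Named were all 10 chains, up to 4 genes per list with the smallest p, any further tested integrin, and 3 similar genes for chains of above-median SD. Intervals of partner contrasts use the t distribution. Promoter sequences are RefSeq's. The 14 alternatives changed the block, normalization, level filter, probe set rule, eBayes settings or arrays.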

Additional observations from a re-analysis of the deposited data

Results flagged for a closer look

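The wt array of batch 2 stood apart for Itgb7, at 8.95 against 8.72 to 8.74 on the other 3 wt arrays. The Irak1-/- array of the same batch, at 8.97, was also the highest of its group. With 20 groups of 4 arrays examined, chance alone marks about 1 in 20.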

How the results depend on the processing

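With 4 arrays per group, few of 13308 genes passed at all. No chain passed under any of the 14 alternatives, and the differences of Itga4, Itgae, Itgal, Itgb2, Itga1, Itga6 and Itgav kept their direction in all of them, with sizes that moved, Itga4 from -0.18 to -0.0078, Itgb2 from -0.16 to -0.012, Itgav from -0.22 to -0.074 and Itga6 from 0.041 to 0.13. Itgb7 turned to 0.021 without batch 3 (range over the left-out batches -0.10 to 0.021) and to 0.041 with no block and without the Irak1-/- array of batch 3. Itgb1 turned to 0.00044 under quantile normalization and ranged from -0.073 to 0.026 over the left-out batches, and Itga2 from -0.078 to 0.17. The alpha4beta7 contrast ranged from -0.12 to 0.016 and the alpha2beta1 contrast from -0.026 to 0.17. The median of the 10 chains stayed between -0.10 and -0.02. The cause of these shifts was not tested. With no replicate block for the pairing, Itga1 kept -0.68 (adjusted p = 0.295) and Itgae 0.61 (0.782). Over all genes 9 were called higher and 1 lower, which became 14 and 2 with a random block, 19 and 2 with median centring, 12 and 2 with a filter at the 60th percentile, 13 and 3 with trend and robust settings, and 0 and 0 with every probe set tested, where more features enter the adjustment. Leaving out each batch gave 6 to 17 higher (17 without batch 1) and 1 lower each time.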

Other observations

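Genes beside the chains that differed most were looked at after their values were seen. Of the 10 tested genes on each side of Itga1 in RefSeq order, 3 were lower and 0 higher at an unadjusted p under 0.05, and 14 of the 20 were negative, with a median of -0.07, beside 3.82% lower at that p and 58.1% negative over all tested genes. The 3 were Pelo (-0.26, adjusted p = 0.745), a ribosome rescue factor whose gene overlaps Itga1, and the granzymes Gzma (-0.49) and Gzmk (-0.67), each lower in 4 of 4 pairs, as were 8.91% of all tested genes. The tested genes between the granzymes and Itga1 are Esm1 (-0.12), Snx18 (-0.10), Arl15 (-0.07), A430090L17Rik (-0.07), Ndufs4 (0.04), Mocs2 (0.01) and Itga2 (0.07). Around Itgae, 2 of the 20 neighbours were lower at that p, Cyb5d2 (-0.29) and Shpk (-0.31), and 0 were higher. Haspin, a mitotic kinase gene that overlaps Itgae, had -0.14 (adjusted p = 0.910). All these p values are from limma with batch as a block, and none passed over all genes.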
